A study of Mus musculus with 18 samples.

Results

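Eva1a and 9 core autophagy genes, Becn1, Map1lc3a, Map1lc3b, Sqstm1, Atg5, Atg7, Atg16l1, Ulk1 and Tfeb, were read out in brain, kidney and gastrocnemius muscle of aged mice. These 10 genes were taken by name from a table of 34745 genes. Eva1a was picked because it was lower in the treated kidneys, so its kidney difference is given as a description with no test, and the other genes were added for their roles in the pathway. The study sequenced mRNA from male wild-type C57BL/6 mice that received SeMSNs, a nano-selenium supplement, from 18 months of age, and tissue was taken at 23 months. Animals of the same age and strain, called old control, received saline by gavage and a normal diet. Each of the 6 groups (3 tissues, old control or SeMSNs) had 3 libraries, 18 in all. The dose received is uncertain, since the submitters state both 10 mg/kg by daily gavage and 5 mg/kg, from a 1 mg/mL stock, on a schedule of 2 doses in 2 days. There was no young group, so nothing here separates an effect of age.

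Macroautophagy wraps cytoplasm, damaged organelles or protein aggregates in a double membrane, the autophagosome, which then fuses with the lysosome. The ULK1 kinase starts the process, the class III phosphatidylinositol 3-kinase complex built on Beclin 1 marks the membrane, and the ATG conjugation enzymes attach LC3 proteins to it, to which cargo receptors such as p62 bind. Eva1a, also called Tmem166, encodes a membrane protein of the endoplasmic reticulum and lysosome that promotes autophagosome formation when overexpressed in human cells. In the kidney, autophagy is known for protecting tubule cells and podocytes, and in brain and muscle for clearing protein aggregates and worn-out mitochondria. Much of the pathway is controlled at the protein level, by phosphorylation and lipidation, which mRNA counts do not measure.

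Eva1a (ENSMUSG00000035104) lies on the plus strand of GRCm38 at chr6:82041043-82093099. The sequence around its RefSeq start is shown because it is the stretch in which Eva1a could be compared with the other genes. The RefSeq promoter table for GRCm38.p6 holds, for each gene, 250 bases before to 50 bases after the start, and 7 of the 10 genes had an entry (Becn1, Map1lc3a and Atg16l1 did not). The window of Eva1a, chr6:82041378-82041677 on the plus strand, lies inside the locus above, so the RefSeq start is downstream of the locus start. The window is shown with the E-box, a motif recognised by TFEB and other helix-loop-helix factors, in capitals.
Eva1a: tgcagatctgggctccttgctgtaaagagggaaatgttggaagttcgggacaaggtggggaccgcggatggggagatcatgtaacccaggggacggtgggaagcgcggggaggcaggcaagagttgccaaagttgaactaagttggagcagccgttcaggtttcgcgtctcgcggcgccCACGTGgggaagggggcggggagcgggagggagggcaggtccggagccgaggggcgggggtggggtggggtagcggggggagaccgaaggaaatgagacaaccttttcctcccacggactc

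The E-box letters, CACGTG on both strands, were found once each in the windows of Eva1a, Atg7 and Atg5, 3 of the 7 genes, and also in that of the Eva1a paralogue Eva1b. Across all 32851 promoters of the table, 7.15% held them. The motif began 71 bases before the RefSeq start in Eva1a, 132 before it in Atg7, 14 before it in Atg5 and 209 before it in Eva1b. The Atg7 window, chr6:114670846-114671145, also lies inside its gene, whose locus begins at 114643097. The bases just after the RefSeq start were found in a GENCODE M21 transcript for Eva1a, but not for Atg7 or Atg5. The 20 bases around each motif, all on the plus strand of GRCm38.p6, are set side by side, with the motif in capitals.
Eva1a, chr6:82041550-82041569: cggcgccCACGTGgggaagg
Atg7, chr6:114670957-114670976: tggtggtCACGTGtgcagta
Atg5, chr10:44268318-44268337: cgcttgcCACGTGgtcttgg
Eva1b, chr4:126147787-126147806: ggaagcaCACGTGtgactct
Outside the motif, the flanks differ between the 4 genes. The longer letters TCACGTGA, which contain the E-box, were in none of the 7 genes' windows and in 0.974% of all promoters. The antioxidant response letters TGACNNNGC were in the window of Map1lc3b alone among the 7, and in 12.4% of all promoters. A match describes letters only.

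The libraries held 17357799 to 22146406 counts, with mitochondrial transcripts at 9.95% to 28.9% of them. Labelled tissues had their defining transcripts: 5 neuronal markers summed to 4303 to 5497 CPM (counts scaled to the library total) in the brain libraries, and 10 fibre markers to 101089 to 151535 CPM in the gastrocnemius libraries. Markers of brain regions differed between the brain libraries. Cerebellar markers summed to 203 to 237 CPM in the old control brains, to 4740 and 4461 CPM in SeMSNs brains 1 and 2, and to 178 CPM in SeMSNs brain 3. Hypothalamic markers were at 21.2 to 209 CPM in the old controls and 1.54 to 3.74 CPM in the SeMSNs brains, where Hcrt, Oxt and Avp, hypothalamic neuropeptide genes, were at 0 in all 3 libraries. Striatal markers, 10 of 10 lower, were at 472 to 1650 CPM in the old controls and 239.7 to 430 CPM in the SeMSNs brains. Old control brain 2 was the low end of both the hypothalamic and the striatal old control ranges, so the old controls differed among themselves too. Choroid plexus markers were at 540.4 to 739 CPM in the old controls and at 887, 185 and 44.9 CPM in SeMSNs brains 1 to 3, so that SeMSNs brain 3 also differed from the old controls. The part of these markers in the brain values was not tested. Brain values of the genes described most closely are also given without SeMSNs brains 1 and 2, which leaves 1 SeMSNs library against 3 and assumes that it varies as the old controls do.

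In kidney, Eva1a with SeMSNs was at 0.325 times the old control level in edgeR's fit, and all 3 treated kidneys were below the 3 controls. It stood at 43.2, 45.0 and 47.1 CPM in the old control kidneys and at 15.5, 12.3 and 16.1 CPM in the SeMSNs kidneys, from 822 to 1030 and 208 to 341 counts. The groups did not overlap, as the choice of the gene implies. The fitted log2 fold change was -1.62 with a standard error of 0.136, and this is the value Eva1a was chosen on. Without old control kidney 3 and SeMSNs kidney 2, it was -1.48.

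Markers of other cells and of injury were summed in the same kidneys. No list had a gene past the threshold, but only 0.00664% of all genes tested passed in kidney, so this says little of the lists. Tubular injury markers, 10 genes of which 10 were lower, summed to 1331 to 1876 CPM in the old controls and 1135 to 1256 CPM with SeMSNs. Macrophage markers, 9 of 10 lower, summed to 145 to 159 and 110.0 to 121 CPM, and endothelial markers, 8 of 8 lower, to 283 to 360 and 226 to 243 CPM. Taken gene by gene, 6.9% of all genes in kidney were lower with SeMSNs without overlap. No defining marker of these 3 lists was at 0 in a whole group. In the other kidney lists the summed levels overlapped between groups: proximal tubule markers, 6 of 8 higher, were at 12410 to 22061 and 18839 to 20282 CPM, and collecting duct markers, 7 of 8 lower, at 639.5 to 730.1 and 488 to 683 CPM. Loop of Henle markers were 6 of 7 higher, podocyte markers 4 of 5 higher, T and NK cell markers 4 of 6 higher and fibroblast markers 3 of 6 higher. Fat cell markers, 4 of 5 higher, were at 55.7 to 96.1 and 43.4 to 158 CPM, and red blood cell markers, 5 of 5 lower, at 8.83 to 119.6 and 6.60 to 41.8 CPM. The part of these markers in the Eva1a difference was not tested. In bulk tissue, fewer cells of a type and less RNA per cell cannot be told apart.

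In brain and gastrocnemius Eva1a did not pass the test. In brain it was at 9.84, 5.98 and 9.55 CPM in the old controls and 11.05, 12.57 and 9.30 CPM with SeMSNs. The ranges overlap, and the lowest value is old control brain 2. It had the most muscle-fibre transcripts of the brain libraries (1180 CPM against 113 and 51.8 CPM in the other old controls). Its striatal markers were at 472 CPM against 1396 and 1650 CPM, and its astrocyte markers at 1283 CPM against 3134 and 2862 CPM. Its hypothalamic markers were at 21.2 CPM against 197 and 209 CPM. Its neuronal and choroid plexus markers were the highest of the old controls. The log2 fold change was 0.37 ± 0.24 (SE, n = 3 and 3; edgeR adjusted p = 0.477), 0.18 without that library and 0.15 without SeMSNs brains 1 and 2. In gastrocnemius it was near the limit of counting, at 0.687, 1.297 and 1.21 CPM against 0.965, 0.924 and 1.121 CPM, from 12 to 28 counts a library. There the log2 fold change was -0.10 ± 0.38 (edgeR adjusted p = 0.930) and turned to 0.06 without old control 2. The difference between the brain and gastrocnemius effects was 0.45 ± 0.34 on the log2 scale (edgeR adjusted p = 0.667). The plot of Eva1a by library shows these values.

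**Figure D1:**
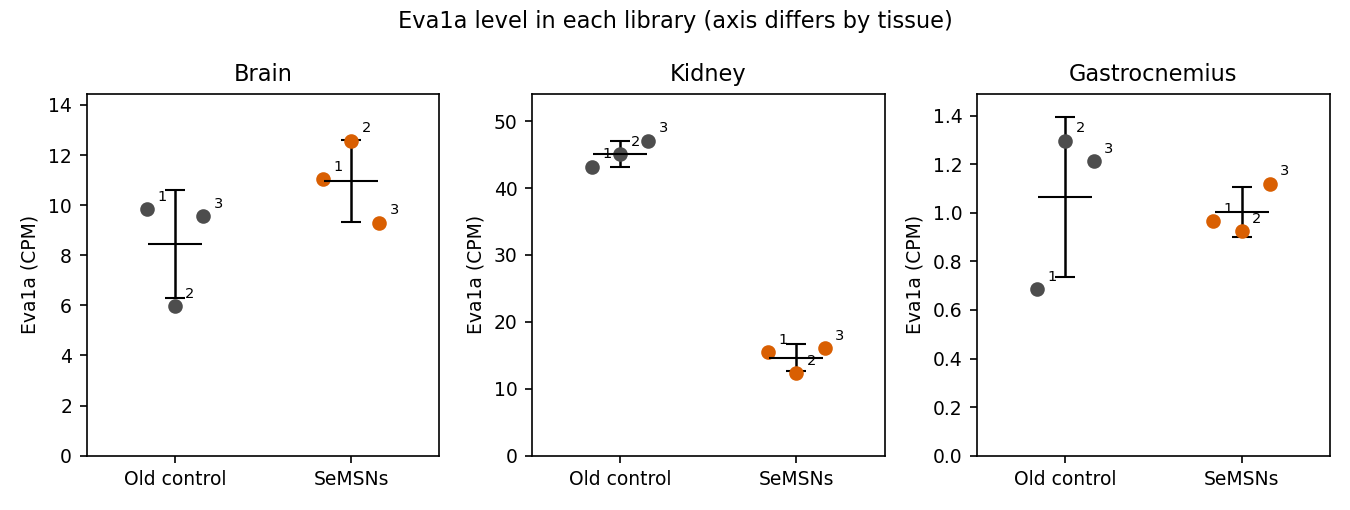
Eva1a in CPM (counts scaled to the library total) in each library of 3 tissues, with the library number beside each point and the group mean ± SD (n = 3) as bars; each panel starts at 0 and has its own scale. The 3 SeMSNs kidneys sit between 12.3 and 16.1, all below the old control kidneys at 43.2 to 47.1, while the groups overlap in brain and gastrocnemius.

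The neighbourhood and family of Eva1a were measured to set beside it. Gm15864, an antisense gene sharing 86 exon bases with Eva1a, had 0 counts in all 18 libraries. Pole4, which encodes a subunit of DNA polymerase epsilon and is the nearest tested gene downstream at 525893 bases, averaged 11.4 CPM in old control and 15.1 CPM in SeMSNs kidneys, a log2 fold change of 0.42 ± 0.14 (edgeR adjusted p = 0.772). Upstream, the predicted gene Gm44202, 54300 bases away, averaged 1.58 and 1.11 CPM (-0.52 ± 0.48, edgeR adjusted p = 0.814). Neither passed the test.

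The paralogues of Eva1a, Eva1b and Eva1c, did not pass either. Eva1b was at 6.57, 7.17 and 10.0 CPM in the old control kidneys and 6.99, 10.3 and 6.89 CPM with SeMSNs, a log2 fold change of 0.03 ± 0.24 (edgeR adjusted p = 0.983). These ranges overlap almost wholly. Eva1c in kidney was at 1.97 to 2.63 CPM in the old controls and 1.59 to 3.56 CPM with SeMSNs, with 0.07 ± 0.34 (edgeR adjusted p = 0.968). In brain the 2 paralogues had 0.40 ± 0.37 and 0.62 ± 0.41 (edgeR adjusted p = 0.621 and 0.485). In gastrocnemius Eva1b had 0.27 ± 0.38 (edgeR adjusted p = 0.781), and Eva1c was below the filter on low counts.

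Levels can be ranked between genes only per length, for which the deposited FPKM (fragments scaled by gene length and library depth) was used. Among the old controls Sqstm1, the p62 cargo receptor, was the highest of the 10 genes in all 3 tissues, with 61.9 ± 5.55 FPKM in brain, 82.3 ± 21.4 FPKM in kidney and 141 ± 49.2 FPKM in gastrocnemius (SD, n = 3). Map1lc3a, an LC3 protein of the autophagosome membrane, followed in brain at 20.5 ± 4.05 FPKM and in gastrocnemius at 52.4 ± 4.40. In kidney Eva1a (12.7 ± 0.52 FPKM), Map1lc3a (12.1 ± 1.43) and Atg5 (12.0 ± 0.18) were next. The Map1lc3a libraries overlapped with those of both other genes, while the 3 Eva1a values, 12.4 to 13.3 FPKM, were above the 3 Atg5 values, 11.8 to 12.1 FPKM. Recomputed over merged exons, whose length differs from the authors' gene length for 9 of the 10 genes, Map1lc3a came second and Eva1a came next to it in kidney.

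The levels of Eva1a by tissue are a description, since its kidney libraries entered its choice. Eva1a had 2.40 ± 0.66 FPKM in old control brain, 12.7 ± 0.52 in kidney and 0.31 ± 0.12 in gastrocnemius, and no 2 of these groups overlapped. The gastrocnemius values rest on 12 to 28 counts a library. Eva1a was thus among the 3 highest of the 10 genes in kidney, eighth in brain and the lowest in gastrocnemius. With SeMSNs it was at 3.19 ± 0.51 FPKM in brain, 4.27 ± 0.73 in kidney and 0.28 ± 0.03 in gastrocnemius. The kidney level thus remained above that of brain by mean, with ranges of 3.44 to 4.75 and 2.64 to 3.65 FPKM that overlap.

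The lowest genes elsewhere were Tfeb, the transcription factor of lysosome and autophagy genes, and Atg7, the enzyme that activates ATG12 and LC3 for conjugation. Tfeb had 0.60 ± 0.13 FPKM in brain, 1.25 ± 0.13 in kidney and 5.46 ± 0.66 in gastrocnemius. Atg7 had 1.58 ± 0.06, 1.48 ± 0.16 and 1.00 ± 0.08 FPKM in the same order. Tfeb was therefore lowest in brain and kidney, where Atg7 came just above it. The remaining 4 genes, Becn1, Map1lc3b, Atg16l1 and Ulk1, lay between 1.49 and 10.2 FPKM on average in each tissue.

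**Figure D2:**
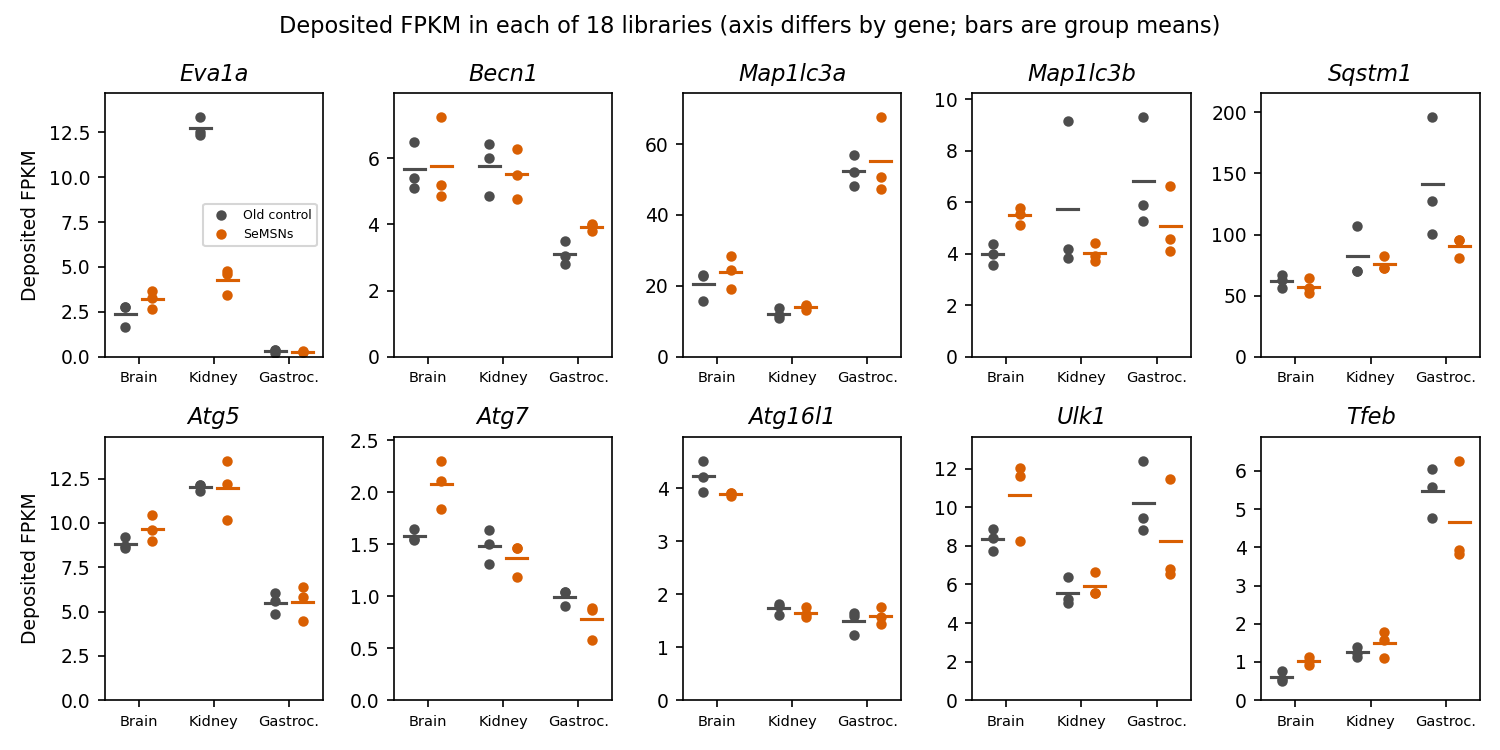
Deposited FPKM of each gene in all 18 libraries, old control and SeMSNs side by side by tissue; points are libraries, short lines are group means, and each panel starts at 0 with its own scale. Eva1a is highest in old control kidney, at 12.4 to 13.3 FPKM, while Map1lc3a, Sqstm1 and Tfeb are highest in gastrocnemius.

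SeMSNs was then compared with old control for the other 9 genes, in the order of their roles. With all libraries, none passed the threshold (edgeR adjusted p under 0.05) in any tissue, and none passed with DESeq2 or limma. Across all genes tested, 0.00622% passed in brain, 0.00664% in kidney, which is 1 gene, the Eva1a chosen for it, from which nothing is read, and 0.0228% in gastrocnemius. Few genes of any kind were thus called, although 2852 were in brain without SeMSNs brain 3. The number of genes with an unadjusted p under 0.05 was 3 of the 9 in brain, 0 for kidney and 2 for gastrocnemius, beside 15.4%, 6.11% and 13% of all genes.

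The initiation gene was Ulk1, whose brain libraries overlapped between groups. Ulk1, the initiating kinase, was at 82.7, 90.2 and 74.2 CPM in the old control brains and at 109, 115 and 81.0 CPM with SeMSNs. The 2 high values are the 2 brains rich in cerebellar transcripts. The log2 fold change of Ulk1 in brain was 0.30 ± 0.16 (edgeR adjusted p = 0.401), passed at 0.44 (edgeR adjusted p = 0.0475) without SeMSNs brain 3, and was -0.01 without SeMSNs brains 1 and 2. Its adjusted p ranged from 0.0475 to 0.982 over 15 alternatives. In kidney Ulk1 had 0.04 ± 0.16 and in gastrocnemius -0.27 ± 0.25 (edgeR adjusted p = 0.958 and 0.671).

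Becn1 encodes Beclin 1, a scaffold of the lipid kinase complex. In gastrocnemius it was at 39.1, 42.2 and 35.9 CPM in the old controls and 53.3, 45.9 and 51.9 CPM with SeMSNs. Every SeMSNs library was above every old control, as for 10.3% of all genes in that direction, and the log2 fold change was 0.37 ± 0.16 (edgeR adjusted p = 0.381). In brain and kidney Becn1 overlapped, with -0.01 ± 0.20 and -0.11 ± 0.17 (edgeR adjusted p = 0.979 and 0.896), and its brain value was 0.36 without SeMSNs brains 1 and 2. Counts of Becn1 are uncertain, because 36.8% of its 50-base stretches also occur in other genes, mainly Cntd1 on the opposite strand, and the sources used here do not state whether counting used strand.

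The conjugation genes Atg7, Atg16l1 and Atg5 passed the test in no tissue. Atg7 was at 16.98, 17.6 and 17.7 CPM in the old control brains and 19.3, 22.7 and 25.3 CPM with SeMSNs. The groups did not overlap, as for 9.94% of all genes with SeMSNs higher, and the log2 fold change was 0.36 ± 0.14 (edgeR adjusted p = 0.300), or 0.55 without SeMSNs brains 1 and 2. In gastrocnemius Atg7 was at 12.5, 10.8 and 9.21 CPM against 6.64, 9.19 and 9.64 CPM, which overlap, with -0.35 ± 0.22 (edgeR adjusted p = 0.519). Its kidney value was -0.15 ± 0.12 (edgeR adjusted p = 0.802).

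Atg16l1, which places the LC3 conjugation machinery at the membrane, was lower in every SeMSNs brain. It was at 74.6, 67.2 and 68.0 CPM in the old control brains and 60.9, 63.1 and 64.6 CPM with SeMSNs, a pattern shared by 10.9% of all genes. Its log2 fold change was -0.15 ± 0.10 (edgeR adjusted p = 0.482). In kidney and gastrocnemius it was -0.12 ± 0.12 and 0.13 ± 0.15 (edgeR adjusted p = 0.829 and 0.748). Atg5, which forms the conjugating complex with ATG12 and ATG16L1, had small fold changes throughout, 0.09 ± 0.13, -0.05 ± 0.13 and 0.03 ± 0.21 in brain, kidney and gastrocnemius (edgeR adjusted p = 0.740, 0.932 and 0.957). Its library values overlapped in all 3 tissues.

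The LC3 genes encode the lipidated proteins of the autophagosome membrane. Map1lc3b had the smallest p of the 9 genes in brain, where it was at 46.7, 39.5 and 41.4 CPM in the old controls and 59.1, 53.4 and 59.3 CPM with SeMSNs. All SeMSNs brains were above all old controls, as for 9.94% of all genes. The log2 fold change was 0.43 ± 0.12 (edgeR adjusted p = 0.255), or 0.49 without SeMSNs brains 1 and 2. In kidney a single library, old control 1 at 97.0 CPM, stood apart from the others at 38.1 to 48.2 CPM. With it the kidney log2 fold change of Map1lc3b was -0.54 ± 0.31 (edgeR adjusted p = 0.779), and without it -0.04. In gastrocnemius Map1lc3b had -0.40 ± 0.25 (edgeR adjusted p = 0.510), with overlapping libraries. Of the 50-base stretches of Map1lc3b, 6.01% also occur in other genes, among them Gm6055, Gm12727 and Gm6054, so part of its counts is uncertain.

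Map1lc3a did not move with SeMSNs beyond its spread. Its old control values were 58.1, 42.0 and 57.5 CPM in brain, 34.6, 26.6 and 32.1 CPM in kidney and 159, 125 and 114 CPM in gastrocnemius. With SeMSNs they were 60.0, 47.4 and 73.1, then 34.9, 38.0 and 32.4, then 135, 163 and 122 CPM. The groups overlap in each tissue, and the log2 fold changes were 0.20 ± 0.20, 0.17 ± 0.14 and 0.08 ± 0.20 (edgeR adjusted p = 0.664, 0.799 and 0.898). Over 15 alternatives the brain value ran from 0.03 to 0.49.

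Sqstm1 encodes p62, which carries ubiquitinated cargo into the autophagosome and is degraded with it. In gastrocnemius it was at 989, 1306 and 657 CPM in the old controls and 596, 637 and 687 CPM with SeMSNs. Old control muscle varied by a factor of nearly 2 and overlapped with SeMSNs at its low end. The log2 fold change was -0.62 ± 0.27 (edgeR adjusted p = 0.375), and -0.37 without old control 2. In kidney, old control 3 at 810 CPM stood above the other libraries at 474 to 554 CPM, and the log2 fold change of -0.18 ± 0.21 (edgeR adjusted p = 0.851) turned to 0.12 without it. In brain Sqstm1 had -0.14 ± 0.13 (edgeR adjusted p = 0.606), and 0.06 without SeMSNs brains 1 and 2. Of its 50-base stretches, 15.5% also occur in Mrnip on the opposite strand, so part of its counts is uncertain.

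Tfeb, the transcription factor that switches on lysosomal and autophagy genes, was higher in each SeMSNs brain than in each old control, at low levels. It was at 7.03, 4.90 and 5.00 CPM in the old control brains and 10.1, 9.26 and 8.49 CPM with SeMSNs. The groups did not overlap, as for 9.94% of all genes with SeMSNs higher. The log2 fold change was 0.72 ± 0.21 (edgeR adjusted p = 0.260), and 0.60 without SeMSNs brains 1 and 2. In kidney and gastrocnemius Tfeb overlapped, with 0.22 ± 0.20 and -0.23 ± 0.23 (edgeR adjusted p = 0.819 and 0.686). The difference between its brain and gastrocnemius effects was 0.91 ± 0.32 on the log2 scale and did not pass (edgeR adjusted p = 0.284).

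**Figure D3:**
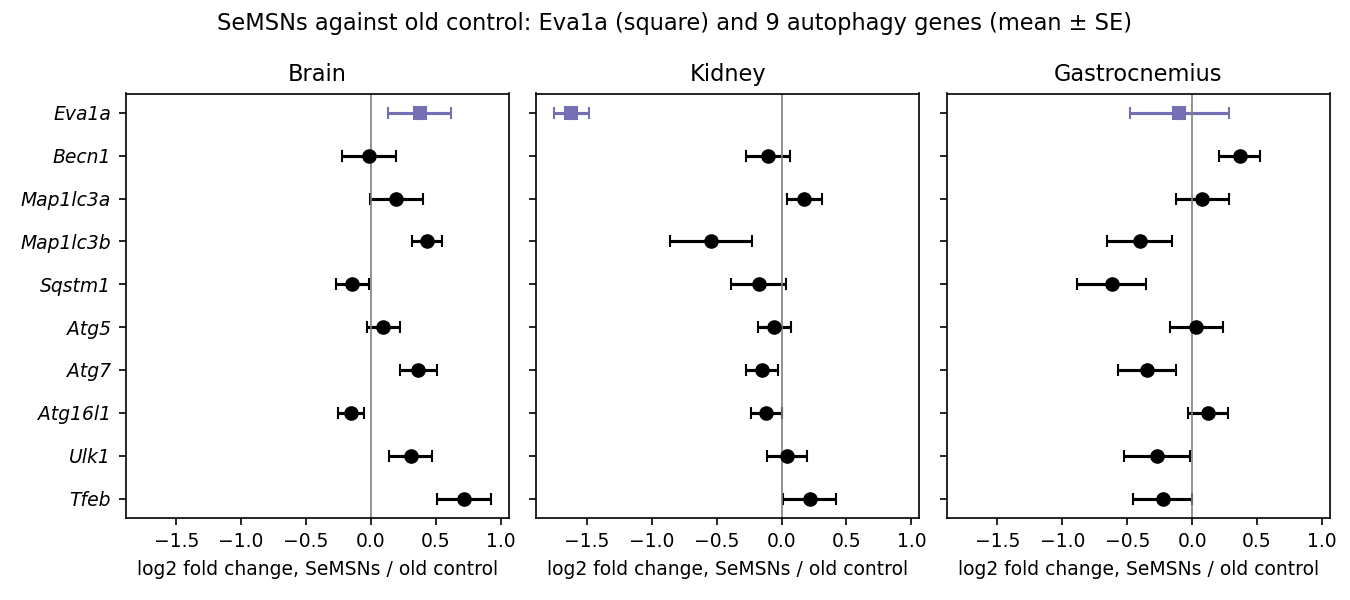
log2 fold change of SeMSNs against old control for Eva1a (square) and the other 9 genes (circles) in 3 tissues, with bars for ± 1 standard error from edgeR's fit. Eva1a in kidney lies at -1.62, and the other 9 genes lie between -0.62 and 0.72 in all tissues.

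Of the 9 genes, 3 were higher and 1 was lower without overlap in brain, beside 9.94% and 10.9% of all genes. In kidney there were 0 of the 9, beside 6.59% higher and 6.9% lower of all genes, and in gastrocnemius 1 higher and 0 lower, beside 10.3% and 8.14%. The mean effect over the 3 tissues passed for none of the 9, beside 0.0889% of all genes. The largest mean effects of the 9 were those of Sqstm1 (-0.33 ± 0.14, edgeR adjusted p = 0.245) and Tfeb (0.22 ± 0.13, edgeR adjusted p = 0.387). No difference of effects between 2 tissues passed for any of the 9, beside 0% of all genes for brain against kidney, 0.0333% for brain against gastrocnemius and 0.0111% for kidney against gastrocnemius. At an unadjusted p under 0.05 there were 1, 2 and 0 of the 9 genes in these comparisons, beside 7.66%, 11.7% and 6.57% of all genes.

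A wider list of 123 autophagy genes, grouped by role, was read in the same fits. In edgeR's fit of each tissue none passed in either direction. In gastrocnemius 1 passed, lower, with DESeq2 and in edgeR's fit of all 18 libraries. Without SeMSNs brain 3, 8 were higher and 2 lower past the threshold, when 2852 of all genes passed, and without old control gastrocnemius 3, 1 was higher and 3 lower, when 335 of all genes passed. In brain 78 leaned higher and 45 lower, the median log2 fold change being 0.07 beside 0.01 over all genes, and 12 of 123 had an unadjusted p under 0.05, beside 15.4% of all genes. In kidney 50 were higher and 72 lower of 122 tested, with a median of -0.03 beside 0.00, and 3 had an unadjusted p under 0.05, beside 6.11%. In gastrocnemius 39 were higher and 83 lower of 122, with a median of -0.11 beside -0.01, and 22 had an unadjusted p under 0.05, beside 13%.

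By role, the gastrocnemius lean was widest in the TFEB family and lysosomal genes and in the cargo receptors. Of 20 TFEB family and lysosomal genes, 18 were lower, 7 of them without overlap, with a median of -0.32. Of 13 cargo receptors, 12 were lower, 4 without overlap, with a median of -0.30. Of all 13150 genes tested there, 6722 were lower, and 8.14% were lower without overlap. These 2 lists had medians of 0.05 and 0.00 in brain and -0.05 and -0.12 in kidney. The conjugation enzymes were 8 higher and 3 lower in gastrocnemius, with a median of 0.06. In these muscles the summed macrophage markers, 9 of 9 tested lower, were at 34.7 to 45.8 CPM in the old controls and 17.5 to 28.7 CPM with SeMSNs, with none at 0. The kidney injury marker list, 8 of 8 tested lower, was at 166 to 205 CPM and 70.2 to 88.6 CPM, with Havcr1 and Krt20 at 0 in every library of both groups. Their part in the lean was not tested.

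**Figure D4:**
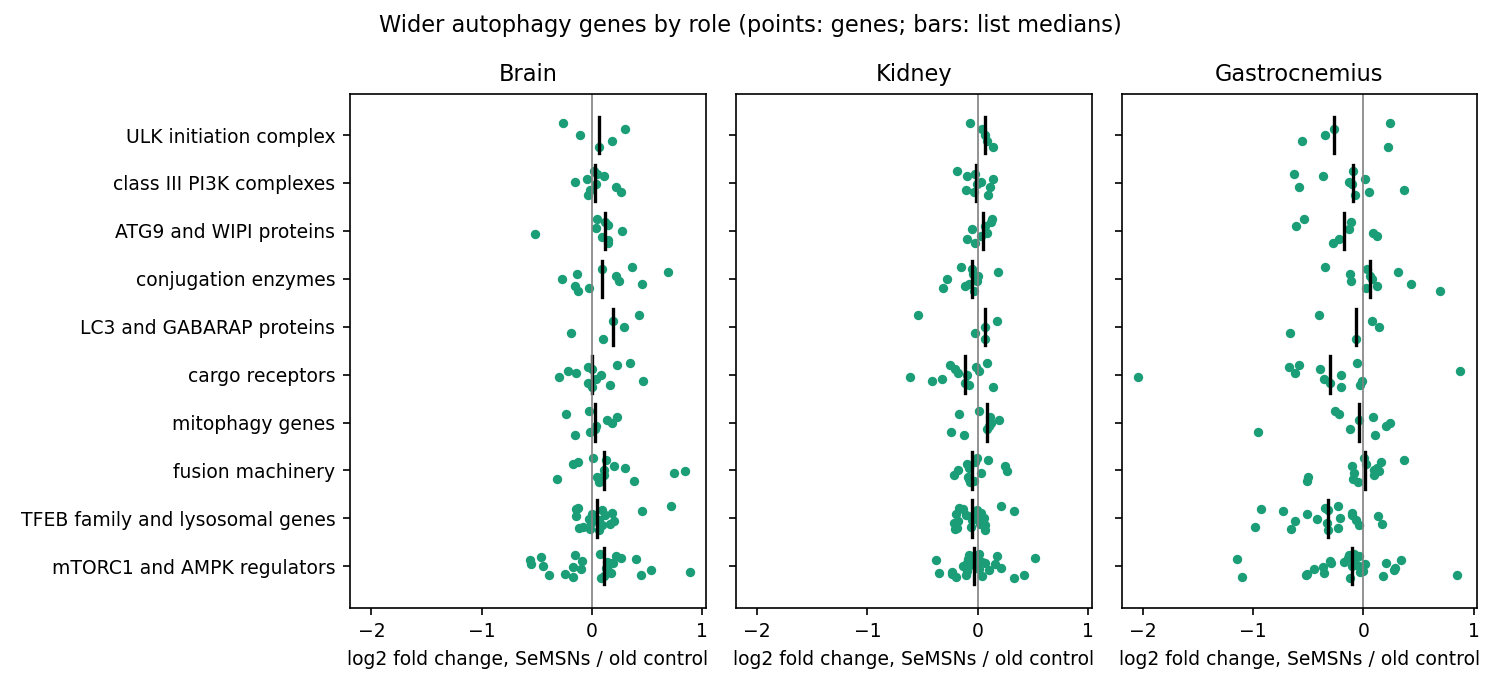
log2 fold change of SeMSNs against old control for 123 autophagy genes in 10 role lists and 3 tissues; each point is a gene and each black bar the median of its list. The bars stay near 0 in brain and kidney, and lie at -0.32 for TFEB family and lysosomal genes and -0.30 for cargo receptors in gastrocnemius, where no gene passed the test.

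The genes with the smallest p in each tissue are given as values. In gastrocnemius Retreg1, an endoplasmic reticulum autophagy receptor, was at 540, 1268 and 657 CPM in the old controls and 349, 123 and 124 CPM with SeMSNs. Every SeMSNs muscle was below every old control, as for 8.14% of all genes in that direction. The log2 fold change of Retreg1 was -2.05 ± 0.48 (edgeR adjusted p = 0.292). It passed with DESeq2 (adjusted p = 0.000762) and with all 18 libraries in one fit (edgeR adjusted p = 0.0448), within a range over 14 alternatives of 0.000762 to 0.718. In kidney Retreg1 had -0.61 ± 0.22, with overlapping libraries, and its mean effect over the tissues was -0.998 ± 0.218 (edgeR adjusted p = 0.0668).

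Atp6v1h, a subunit of the lysosomal proton pump, was at 20.4, 39.3 and 23.7 CPM in the old control muscles and 14.99, 15.7 and 11.5 CPM with SeMSNs (-0.98 ± 0.27, edgeR adjusted p = 0.307). In the higher direction stood Stbd1, a glycogen-binding autophagy receptor, at 34.1, 26.5 and 41.4 CPM against 51.9, 88.4 and 47.4 CPM (0.88 ± 0.27, edgeR adjusted p = 0.312). Deptor, an inhibitor of mTOR, was at 39.7, 43.9 and 85.4 CPM against 95.5, 100.4 and 108 CPM (0.85 ± 0.29, edgeR adjusted p = 0.312). Deptor passed, at 1.28 with an edgeR adjusted p of 0.0144, without old control 3, the library with the high value.

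In brain, after Map1lc3b, the gene with the smallest p in the higher direction was Atg4d, a protease that processes LC3 family proteins. It was at 19.7, 17.5 and 17.5 CPM in the old controls and 36.3, 29.6 and 22.3 CPM with SeMSNs (0.69 ± 0.20, edgeR adjusted p = 0.257), and had 0.30 without SeMSNs brains 1 and 2, which carry its higher values. Without SeMSNs brain 3 it passed, at 0.85 (edgeR adjusted p = 0.0123), within a range over 15 alternatives of 0.0123 to 0.619. In the lower direction stood Prkaa2, a catalytic subunit of AMPK (-0.45 ± 0.15, edgeR adjusted p = 0.271), and Sesn3, a sestrin that restrains mTORC1 (-0.46 ± 0.19, edgeR adjusted p = 0.316). In kidney the higher genes were Sesn2, another sestrin (0.52 ± 0.24, edgeR adjusted p = 0.772), and Vamp8, a fusion protein of the autophagosome (0.26 ± 0.16, edgeR adjusted p = 0.779). The libraries of both overlapped between groups. The lower genes were Retreg1, given above (edgeR adjusted p = 0.772), and Optn, the cargo receptor optineurin (-0.33 ± 0.12, edgeR adjusted p = 0.772). Optn was at 20.4, 24.6 and 24.6 CPM in the old control kidneys and 19.0, 18.5 and 17.9 CPM with SeMSNs. The groups did not overlap, as for 6.9% of all genes with SeMSNs lower.

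Between tissues the members were compared among the 9 old control libraries. The scaling decides much here: relative to the default (TMM), dividing by library totals alone shifted the median log2 difference of all genes from -0.05 to -0.55 for kidney against brain, from -0.18 to -1.26 for gastrocnemius against brain and from 0.07 to 0.64 for kidney against gastrocnemius. Under TMM, 70.9%, 71.5% and 61.2% of all genes differed in either direction in these comparisons, so a difference in a single member is common among genes. The counts by direction that follow are under TMM and move with the scaling. Of the 9 genes other than Eva1a, 6 were higher and 1 lower in kidney than in brain, beside 34.1% and 36.9% of all genes. In gastrocnemius against brain 7 were higher and 1 lower, beside 32.1% and 39.4%, and in kidney against gastrocnemius 1 was higher and 6 lower, beside 32.9% and 28.2%. Without old control kidney 1, 3 of the 9 were higher in kidney than in brain, and without old control brain 1 none was lower in gastrocnemius than in brain. What follows names the differences that were called in the same direction under both scalings, TMM first.

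Against brain, old control gastrocnemius was higher in Tfeb (log2 4.28 ± 0.23 and 3.17), Map1lc3a (2.46 ± 0.20 and 1.35) and Sqstm1 (2.28 ± 0.31 and 1.19), and lower in Atg16l1 (-0.43 ± 0.13 and -1.51) and in Eva1a (-1.85 ± 0.27 and -2.92). Kidney was higher than brain in Tfeb (1.55 ± 0.21 and 1.05) and Atg5 (0.95 ± 0.16 and 0.45), and lower in Atg16l1 (-0.78 ± 0.13 and -1.28). Against gastrocnemius, kidney was higher in Atg5 (0.54 ± 0.16 and 1.13) and lower in Tfeb (-2.73 ± 0.21 and -2.13), Map1lc3a (-2.71 ± 0.20 and -2.12), Ulk1 (-1.45 ± 0.17 and -0.88) and Sqstm1 (-1.35 ± 0.30 and -0.78). For Tfeb the order of levels was thus gastrocnemius, kidney, brain, and for Atg16l1 both other tissues were below brain.

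Some directions turned with the scaling. Atg7 was higher in gastrocnemius than in brain under TMM (0.43 ± 0.16, edgeR adjusted p = 0.0348) and lower with library totals (-0.67, edgeR adjusted p = 0.00386), and Atg5 did the same (0.41 and -0.69). Becn1 in gastrocnemius against brain was 0.22 under TMM and -0.87 with totals, Atg7 in kidney against brain 0.40 and -0.09, and in kidney against gastrocnemius Atg7 was -0.03 and 0.57 and Atg16l1 -0.35 and 0.23. No direction is given for these. For Eva1a, whose kidney libraries entered its choice, the values are a description: 2.91 and 2.41 for kidney against brain and 4.76 and 5.33 for kidney against gastrocnemius. Eva1b was also higher in kidney than in brain (3.79 ± 0.35 under TMM) and than in gastrocnemius (2.08 ± 0.32), while Eva1c in gastrocnemius was lower than in brain (-1.46 ± 0.49).

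**Figure D5:**
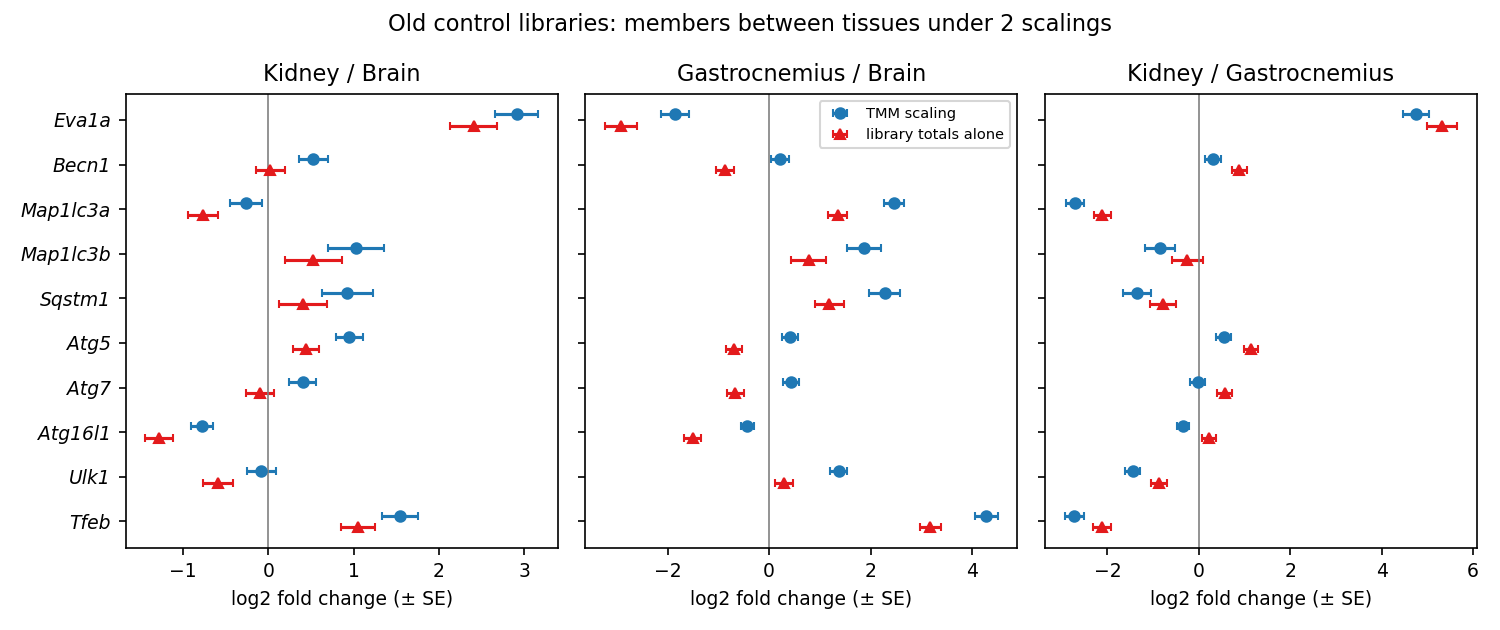
log2 fold change of each gene between tissues in the old control libraries, with TMM scaling (circles) and with library totals alone (triangles), ± 1 standard error from edgeR's fit. Tfeb in gastrocnemius against brain stays high at 4.28 and 3.17, whereas Atg5 and Atg7 cross 0 in that panel.

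Among the wider autophagy genes, several differed strongly between tissues under both scalings. Kidney was above brain in Vamp8 (4.29 ± 0.23 and 3.79), the lysosomal membrane gene Lamp2 (3.57 ± 0.17 and 3.08), the sialidase gene Neu1 (3.42 ± 0.19 and 2.93) and Retreg1 (2.92 ± 0.35 and 2.41). Gastrocnemius was above brain in Stbd1 (6.15 ± 0.37 and 5.07), Retreg1 (5.09 ± 0.38 and 4.02), Prkaa2 (3.49 ± 0.16 and 2.40) and the mitophagy receptor gene Bnip3 (3.47 ± 0.31 and 2.38). Against gastrocnemius, kidney was below in Prkab2, a subunit of AMPK (-4.90 ± 0.36 and -4.31), and Optn (-3.51 ± 0.15 and -2.93). Under TMM, 46 of the 123 genes were higher and 35 lower in kidney than in brain, beside 34.1% and 36.9% of all genes, and with library totals 28 and 55, beside 24.5% and 47.9%. For gastrocnemius against brain the counts were 62 and 25 under TMM, beside 32.1% and 39.4%, and 27 and 67 with library totals, beside 14.7% and 61.3%. For kidney against gastrocnemius they were 26 and 52 under TMM, beside 32.9% and 28.2%, and 53 and 35 with library totals, beside 46.5% and 16.4%.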

How the data were processed

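The deposited table holds whole-number read counts and FPKM per gene, both made by the authors, for 34745 genes in 18 libraries. The build, GRCm38, is from the submitters' processing notes; the sources used here do not state the aligner, counter, annotation or strandedness. Library titles gave the groups and numbers, and a SeMSNs library titled 3 carries the number 4 in other labels. The labels do not tie libraries to mice, and p-values therefore measure only the spread between libraries, which may be technical.

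Counts were tested with edgeR 4.0.16 in R 4.3.3 (quasi-likelihood test, filterByExpr with a minimum count of 10 and total of 15, TMM scaling, Benjamini-Hochberg adjustment over all genes tested, threshold 0.05). Treatment was fitted per tissue, tissues among the 9 old control libraries, and mean effects and differences of effects over all 18. The standard error is the log2 fold change divided by the root of the F statistic. CPM divides counts by the library total over the genes kept by the filter, times the TMM factor of that fit. Old control kidney and gastrocnemius libraries of the same number deviated together (correlations 0.109 to 0.111), which passes the rule for pairing; the block changed no count there by over 1.5 times. Replicate libraries differed by more than sampling noise (chi-square per degree of freedom 16.8 to 137).

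Alternatives used DESeq2 1.42.0, limma 3.58.1 on log2(FPKM + 1) and log2(FPKM + 0.1), other scalings and filters, a replicate block and leaving out libraries. The script was tested on simulated data. Exon overlaps used GENCODE M21, which holds 34267 of the IDs. The genes named are all 10 members, their neighbours and paralogues, and, from each wider list comparison, the 2 genes with the smallest p a direction where none passed, or the largest tissue differences called under both scalings, of which a few are shown. The members and lists were chosen with earlier results of these data known.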

Additional observations from a re-analysis of the deposited data

Results flagged for a closer look

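The fitted log2 fold changes of Eva1a had opposite signs in brain and kidney, 0.37 and -1.62, a difference of 1.95 in the fit of all 18 libraries. The brain value did not pass the test (edgeR adjusted p = 0.477). The pair is listed because all 3 SeMSNs kidneys lay below the old control kidney mean, and all 3 SeMSNs brains above the old control brain mean. The difference was not tested, since Eva1a was chosen for its kidney value, and the brain libraries themselves overlapped.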

How the results depend on the processing

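Eva1a in kidney, chosen for that value, had -1.69 to -1.39 over 15 alternatives, the last with limma on log2(FPKM + 1), with and without a filter. No other gene of the 9 passed for treatment in any alternative except Ulk1 in brain without SeMSNs replicate 3 (1 gene). The cause of the changes below was not tested, unless fewer libraries or genes are named.

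Counts of all genes past the threshold moved most. In brain, 1 by edgeR became 668 with DESeq2, 2 with the replicate block, 190 in one fit of all libraries, 0 without SeMSNs 1 and 2, and 0 to 2852 with one library left out (2852 without SeMSNs 3, 21 without control 2). In kidney, 1 became 26 with DESeq2, 5 with no filter, 0 with limma at both pseudocounts, 4 with limma and no filter, 0 with the replicate block, 7 without control 3 and SeMSNs 2, and 0 to 4 with one left out. In gastrocnemius, 3 became 163 with DESeq2, 31 with no filter, 0 with limma and no filter, 30 in one fit, and 0 to 335 with one left out. The mean effect, 16, became 913 with DESeq2, 62 with its size factors, 102, 77 and 130 with limma, 5 with the replicate block, and 2 to 611 with one left out. Differences of effects, 0, 6 and 2 genes, became 122, 281 and 45 with DESeq2, 119, 140 and 7 with limma, 45, 58 and 1 at the pseudocount 0.1, 177, 190 and 6 with no filter, 13 for brain against gastrocnemius with edgeR and no filter, and 0 to 419, 0 to 591 and 0 to 101 with one left out.

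Counts of the wider genes stand beside the all-gene counts given above for the same settings, and nothing about autophagy genes is read from them. Brain gave 8 higher and 2 lower without SeMSNs 3. Gastrocnemius gave 1 lower with DESeq2 and in one fit, and 1 higher and 3 lower without control 3. The mean effect gave 1 higher and 7 lower with DESeq2, 1 lower with limma at both pseudocounts, and 1 higher and 1 to 3 lower with one left out. Brain against gastrocnemius gave 2 higher and 1 lower with DESeq2, 1 and 2 higher with limma with and without a filter, and 3 to 6 higher and 1 lower with one left out; brain against kidney gave 2 higher, and kidney against gastrocnemius 1 and 1, with one left out.

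Signs of small treatment effects turned. In brain, Becn1 was 0.0087 and 0.0082 with limma, 0.36 without SeMSNs 1 and 2 and -0.24 to 0.12 with one left out, Sqstm1 0.061 and Ulk1 -0.011 without SeMSNs 1 and 2. In kidney, Sqstm1 was 0.11 and Atg5 0.072 without control 3 and SeMSNs 2, and with one left out Becn1 was -0.24 to 0.0033, Sqstm1 -0.31 to 0.12, Atg5 -0.14 to 0.020 and Ulk1 -0.058 to 0.20. In gastrocnemius, with one left out, Eva1a was -0.32 to 0.058, Map1lc3a -0.047 to 0.23 and Atg5 -0.088 to 0.16. The mean effect of Atg7 was 0.0059 with limma, and with one left out that of Becn1 was -0.012 to 0.11, Atg5 -0.028 to 0.056 and Ulk1 -0.093 to 0.067.

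Tissue comparisons turned on scaling: deposited FPKM with limma moved with library totals, away from TMM. For kidney against brain, both left 2 of the 9 genes higher and 3 lower, wider genes 28 to 29 higher and 59, 58, 56 and 55 lower, and Atg7 at -0.058, -0.092 and -0.093; without kidney control 1, 3 of the 9 were higher, and Ulk1 was -0.23 to 0.059 with one left out. For gastrocnemius against brain, 3 were higher and 4 lower (0 lower without brain control 1), wider genes 27, 28 and 29 higher and 67, 68 and 69 lower, Becn1 -0.70, -0.84 and -0.87, Atg5 -0.60, -0.68 and -0.69, Atg7 -0.37, -0.62 and -0.67, and Vmp1 -0.33, -0.38 and -0.28. For kidney against gastrocnemius, 3 were higher, wider genes 53 and 54 higher, Atg7 0.31, 0.53 and 0.57 (-0.13 to 0.083 with one left out) and Atg16l1 0.14, 0.22 and 0.23.

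Same-numbered libraries deviated together in no treatment comparison and in no other pair of old control tissues, so the block pairs only a number there, and it moved no other count by over 1.5 times. Leaving out SeMSNs 1 and 2, control kidney 3 with SeMSNs 2, and the scaling by totals were chosen after seeing the data. With 12 to 28 counts a library, depth limits what can be said of Eva1a in gastrocnemius.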

Other observations

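Genes whose pattern was most like that of Eva1a were found by Pearson's r of log2(CPM + 1), as a description over libraries that share tissues. Over all 18 libraries, among 15724 genes, these were Cdr2 (0.967), Gldc (0.962), Ttpa (0.962), Sptlc2 (0.958) and Slc16a14 (0.957). Over the 9 old control libraries, among 15336 genes, they were Glb1l (0.999), Wnk4 (0.999), Man2b1 (0.996), Sardh (0.996) and Bid (0.995), which follow the order of the 3 tissues. Of the other 9 genes, Map1lc3a ran most against Eva1a over the 18 libraries, at -0.836.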
